A study of Mus musculus with 4 samples.

Results

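Dendritic cells are the antigen-presenting cells of the spleen, and 10 genes that mark their subsets or control their development were followed here in CD4+ lymphoma and in normal CD4+ spleen cells. The genes were Cd209a and Clec4a4 for CD4-bearing conventional dendritic cells, Siglech and Tcf4 for plasmacytoid dendritic cells, and Clec9a, Xcr1 and Batf3 for cross-presenting dendritic cells. Irf8 serves both of the last subsets, and Flt3 and Zbtb46 mark conventional dendritic cells more widely. They were chosen by name with earlier results of these data known, so their counts set beside shares of all genes carry no test. Each had 1 probe set annotated with that gene alone, so all 10 were measured, out of 19938 genes on the array that had such a probe set.

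The study profiled total RNA of C57BL/6 mouse spleen on 4 single-channel Affymetrix arrays. The lymphoma group held 2 arrays of CD4+ lymphoma cells from mice homozygous for a Tet2 gene trap, and the wild type group held 2 arrays of CD4+ splenocytes from control mice. In both groups a spleen suspension was freed of red cells and labelled with a biotinylated CD4 antibody, and the bound cells were collected on magnetic columns. Tet2 encodes an enzyme that oxidises methylated cytosine in DNA, and a gene trap interrupts a gene with an inserted cassette. The sources used here give neither the ages of the mice, nor the purity of the collected cells, nor the number of animals behind each sample. Genotype and lymphoma differ together between the groups and cannot be told apart, and p-values measure only the spread between these samples, which may be technical.

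In the mouse spleen, conventional dendritic cells fall into a subset that cross-presents antigen on MHC class I to CD8 T cells, and a subset that presents mainly on MHC class II to CD4 T cells. Many cells of the second subset carry CD4 on their surface, as do many plasmacytoid dendritic cells, which make type I interferon when they sense viral nucleic acid. Cross-presenting cells of mouse spleen typically carry CD8 alpha and lack CD4. A CD4 selection can therefore retain CD4-bearing dendritic cells beside T cells. Batf3 and Irf8 are needed for the cross-presenting subset and Tcf4 for plasmacytoid cells, while the receptor Flt3 supports all of them through its ligand Flt3l.

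The starts of 3 genes that stand for the 3 subsets show which letters lie before genes that were lower together on the lymphoma arrays. Each run gives the 250 bases before the annotated start, 5′ to 3′ on the gene's strand, from RefSeq with the build GRCm38.p6. Capitals mark the E-box letters CANNTG, which E proteins such as Tcf4 can bind. Cd209a lies on the minus strand (chr8:3748985-3749234), Siglech on the plus strand (chr7:55767934-55768183) and Clec9a on the plus strand (chr6:129408612-129408861).
Cd209a: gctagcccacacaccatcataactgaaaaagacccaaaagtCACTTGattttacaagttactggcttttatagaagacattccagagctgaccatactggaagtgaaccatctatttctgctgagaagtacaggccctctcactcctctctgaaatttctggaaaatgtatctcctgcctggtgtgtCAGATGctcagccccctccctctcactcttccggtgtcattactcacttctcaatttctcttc
Siglech: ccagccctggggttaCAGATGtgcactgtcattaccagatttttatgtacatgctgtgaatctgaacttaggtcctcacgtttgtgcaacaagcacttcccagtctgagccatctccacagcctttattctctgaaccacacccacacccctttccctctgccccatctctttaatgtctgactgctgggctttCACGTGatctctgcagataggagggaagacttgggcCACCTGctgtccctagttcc
Clec9a: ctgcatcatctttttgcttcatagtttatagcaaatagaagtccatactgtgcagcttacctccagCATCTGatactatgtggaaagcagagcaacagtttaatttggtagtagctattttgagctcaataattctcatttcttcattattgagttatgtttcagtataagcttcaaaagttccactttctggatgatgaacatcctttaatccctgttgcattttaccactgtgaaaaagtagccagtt

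These windows held 2 E-box matches before Cd209a, 3 before Siglech and 1 before Clec9a. Among all 32851 promoter windows of the same length in the RefSeq table, 66.2% held at least 1 such match, so its presence is common. The AP-1 letters TGANTCA, which dimers of factors such as Batf3 can bind, were searched as well, both strands being read in each case. They occurred in 6.75% of all windows and in none of these 3, so no match of the AP-1 and E-box letters overlapped here. RefSeq windows were read for 8 of the members, and the AP-1 letters occurred in that of Zbtb46. Tcf4 lies on chromosome 18, whose windows were left out of the search of members, and no window was found for Clec4a4. A match is a description of letters and not of binding.

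Of the 10 genes, 7 had a lower signal in lymphoma (limma, Benjamini-Hochberg adjusted p under 0.05), where 2.46% of all genes tested were lower. No member was higher, where 1.82% of all genes were higher, and 3 did not pass. At an unadjusted p under 0.05 in limma, 0 members and 1740 of the 19938 genes were higher. All 10 log2 differences were negative, with a median of -1.98 against -0.04 over all genes. Both lymphoma values lay below both wild type values for 9 of the 10, a pattern found in 23.5% of all genes. Both lay above wild type for none of them, against 20.6% of all genes. Fewer dendritic cells and less of these RNAs per cell cannot be told apart in bulk RNA.

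**Figure D1:**
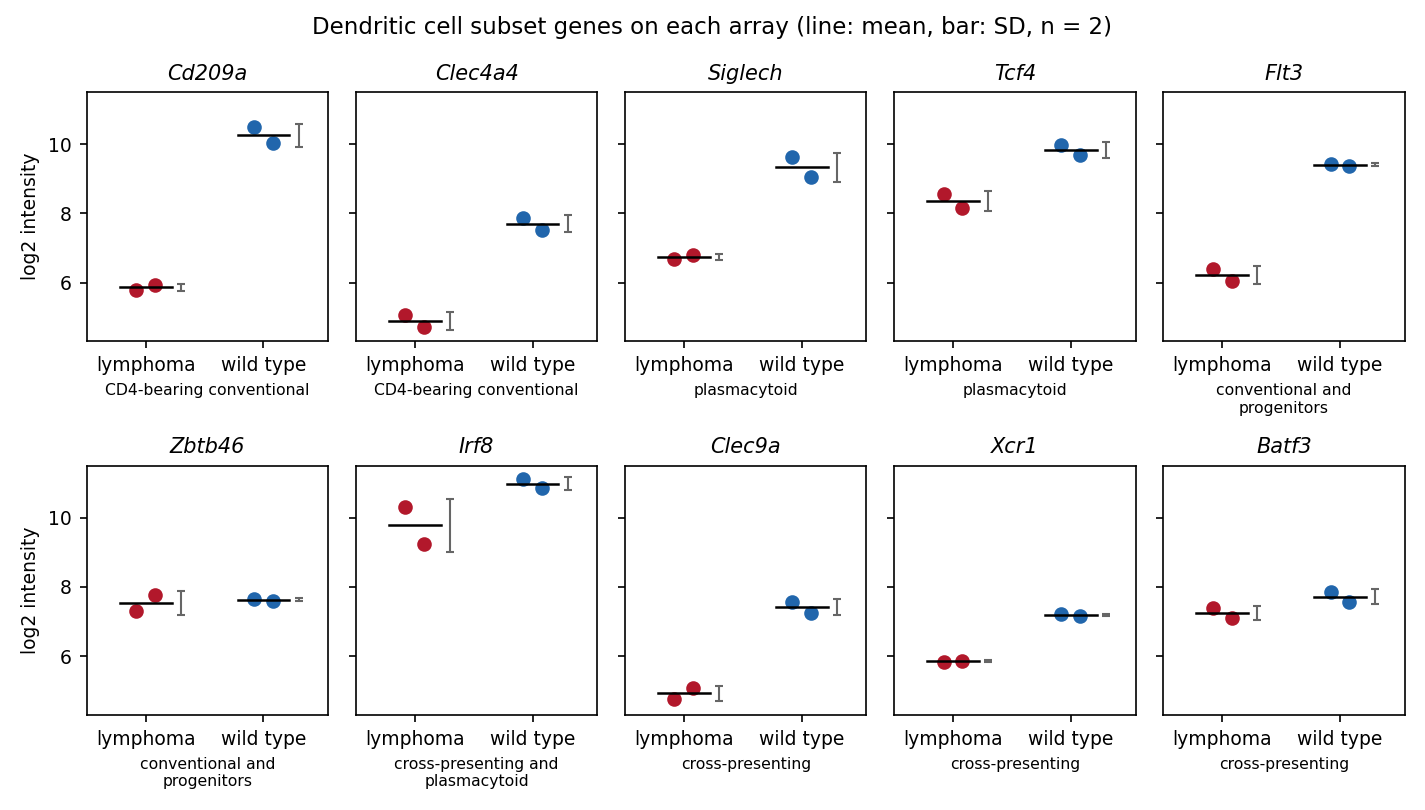
The log2 intensity (y axis) of each of the 10 genes on the 2 lymphoma and 2 wild type arrays is shown as points, with the group mean as a line and the SD (n = 2) as a bar. The groups overlap for Zbtb46 alone, and the lymphoma arrays lie far apart for Irf8. Levels of different genes come from different probes and are not comparable.

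Cd209a, a mouse relative of the human lectin DC-SIGN that is found on CD4-bearing conventional and monocyte-derived dendritic cells, had intensities of 55.5 and 61.3 in lymphoma, against 1445 and 1044 in wild type. The lymphoma values sat close together, far below the wild type values. Its log2 difference was -4.40 (SE 0.22, n = 2 arrays each), or 21.1-fold lower (adjusted p = 0.0013 in limma), and only 9 of the 19938 genes had a more negative difference. On lymphoma array 1 it was below the lower quartile of all probe sets of that array.

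Clec4a4 encodes DCIR2, an inhibitory lectin of the CD4-bearing conventional subset. It had intensities of 33.4 and 25.9 in lymphoma, against 236 and 184 in wild type. Both lymphoma values lay below the lower quartile of their arrays (56.4 and 54.3), so the fold may be understated. The log2 difference was -2.82 (SE 0.22), or 7.09-fold lower (adjusted p = 0.0032 in limma).

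Siglech, a sialic acid binding lectin used to identify mouse plasmacytoid dendritic cells, had intensities of 102 and 111 in lymphoma, against 794 and 527 in wild type. The wild type arrays differed more from each other than the lymphoma arrays did, and the groups stayed apart. The log2 difference was -2.60 (SE 0.24), or 6.08-fold lower (adjusted p = 0.0055 in limma). Tcf4 encodes the E protein E2-2, which specifies plasmacytoid cells and is also made by B cells. Its intensities were 377 and 285 in lymphoma, against 1017 and 820 in wild type, a smaller difference of -1.48 (SE 0.22, 2.79-fold lower, adjusted p = 0.021 in limma).

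Flt3, the receptor tyrosine kinase of dendritic cells and of their bone marrow progenitors, had intensities of 84.0 and 65.8 in lymphoma, against 694 and 666 in wild type. The wild type values nearly coincided. Its log2 difference was -3.19 (SE 0.20), or 9.14-fold lower (adjusted p = 0.0021 in limma), second in size to that of Cd209a among the members. Zbtb46, a zinc finger repressor that separates conventional dendritic cells from other myeloid cells, had 156 and 220 in lymphoma, against 202 and 194 in wild type. The wild type values lay between the lymphoma values, and the log2 difference was -0.09 (SE 0.22, 95% interval -0.62 to 0.43, adjusted p = 0.92 in limma). Its sign turned without lymphoma array 1 (0.15).

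Irf8, a transcription factor needed by cross-presenting cells, active in plasmacytoid cells and also made by B cells and macrophages, had intensities of 1282 and 606 in lymphoma, against 2240 and 1848 in wild type. Lymphoma array 2 was far below lymphoma array 1, although both lay below wild type. The log2 difference was -1.21 (SE 0.36, 95% interval -2.07 to -0.35), and it did not pass (adjusted p = 0.15 in limma). Dropping lymphoma array 1 moved the difference to -1.75, and dropping lymphoma array 2 moved it to -0.67. In each of these fits 1 lymphoma array stands for its group. The spread there rests on the wild type pair and on variances that limma pools over all genes.

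Clec9a, the receptor DNGR-1 through which cross-presenting dendritic cells recognise actin exposed by dead cells, had intensities of 27.2 and 33.8 in lymphoma, against 190 and 151 in wild type. Both lymphoma values lay below the lower quartile of their arrays. The log2 difference was -2.49 (SE 0.21), or 5.60-fold lower (adjusted p = 0.0042 in limma). Xcr1, the chemokine receptor of the same subset, had 56.7 and 58.4 in lymphoma, against 147 and 143 in wild type. Replicates agreed closely in both groups, and the log2 difference was -1.34 (SE 0.16, 2.52-fold lower, adjusted p = 0.011 in limma).

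Batf3, the AP-1 factor needed to form the cross-presenting subset and also made by activated T cells, had 166 and 137 in lymphoma, against 233 and 188 in wild type. The groups were close to each other without overlapping. The log2 difference was -0.48 (SE 0.20, 95% interval -0.97 to 0.02), and it did not pass (adjusted p = 0.34 in limma).

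The calls depended on the wild type pair. Without either wild type array, the spread came from the lymphoma pair and from the variances of all genes, which limma pools. No member passed in those fits. The log2 differences of the called members stayed negative, that of Cd209a at -4.16 without array 1 of the pair and -4.63 without array 2. The adjusted p of Cd209a was 0.062 and 0.051 in these fits. No gene on the array passed in either of them, nor therefore any of the 60 called genes of the lists described further on.

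**Figure D2:**
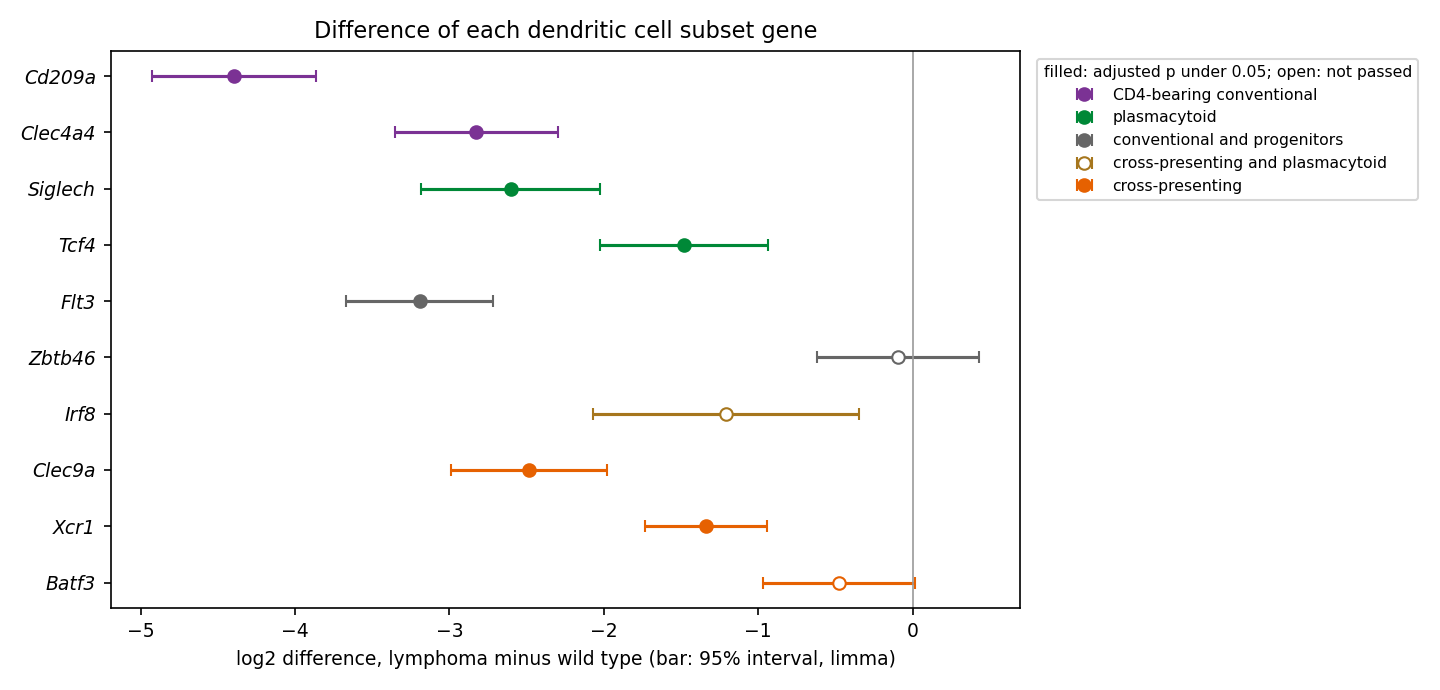
The log2 difference of each gene (x axis, lymphoma minus wild type, 2 arrays each) is drawn with its 95% interval from limma, coloured by subset. Filled points passed an adjusted p of 0.05. Cd209a has the most negative difference (-4.40), and the interval of Clec9a overlaps those of Clec4a4 and Siglech.

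The CD4-bearing conventional genes had a median log2 difference of -3.61 (Cd209a and Clec4a4) and the plasmacytoid genes a median of -2.04 (Siglech and Tcf4), and the cross-presenting genes had -1.34 (Clec9a, Xcr1 and Batf3). These medians rest on 2 or 3 genes each and carry no test. The longer lists of other genes of the subsets, given further on, had medians of -0.43 for CD4-bearing conventional cells (11 genes) and -1.49 for plasmacytoid cells (12 genes), and -0.49 for cross-presenting cells (14 genes). The gap between the CD4-bearing conventional and cross-presenting members was therefore not seen between the medians of those lists. Their mean log2 differences were -0.80 and -0.58. Of their genes 5 of 11 and 2 of 14 fell, against 2.46% of all genes. Without Batf3 the cross-presenting median was -1.91, and with Irf8 counted among the plasmacytoid genes theirs was -1.48. With both of these changes the plasmacytoid median is less negative than the cross-presenting one, where the first count has it more negative.

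Of 12 pairs of genes that set a cross-presenting gene against a CD4-bearing conventional or plasmacytoid gene, the 95% intervals of the log2 differences lay apart in 7 and overlapped in 5. Cd209a had a more negative interval (-4.93 to -3.87) than each of the 3 cross-presenting genes. The interval of Clec9a (-2.99 to -1.98) overlapped that of Clec4a4 (-3.35 to -2.30), that of Siglech (-3.19 to -2.02) and that of Tcf4 (-2.02 to -0.93). The interval of Xcr1 (-1.73 to -0.94) overlapped that of Tcf4. Clec9a and Clec4a4 were below the lower quartile of both lymphoma arrays, so their differences may be limited by how dim they were. The overlap of their intervals does not show that they fell alike. Xcr1 (56.7 and 58.4) and Cd209a (55.5 and 61.3) also lay near the lower quartiles of the lymphoma arrays (56.4 and 54.3). Their wild type means were 145 and 1244, so Cd209a had more room to fall. How far the order of the differences follows wild type brightness was not tested. With 2 arrays a group, an exact permutation test of such a difference could not go below a two-sided p of 0.333, so none was run.

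Other cells of the spleen moved on the same arrays. Of 9 measured B cell markers, 8 fell and none rose, with a median log2 difference of -3.13 and summed intensities of 2779 to 3176 in lymphoma, against 13433 to 20265 in wild type. Cd79a, part of the B cell receptor, was at -3.32. With a robust variance trend in limma the calls of Ms4a1 (adjusted p = 0.11), Cd79a (0.14) and Cd79b (0.051) ended. Of 14 macrophage and monocyte markers, 9 fell and none rose, with a median of -1.42, sums of 3943 to 5203 in lymphoma against 12933 to 12971 in wild type, and the receptor Csf1r at -2.51. No probe set on any array was at 0 (lowest intensity 2.50), so a signal above 0 does not show that such cells were present. Tcf4, Irf8 and several genes of the lists that follow are not limited to dendritic cells, and the part of B cells and macrophages in their differences was not tested.

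T cell markers were present in both groups. None of 10 measured CD4 T cell markers passed in either direction (unadjusted p under 0.05 in limma for 4 higher and 1 lower), and their sums were 31256 to 33159 in lymphoma, against 28648 to 29044 in wild type. Cd3e had 7271 and 7720 in lymphoma, against 5823 and 5806 in wild type, and Cd4 had 5839 and 7134, against 4552 and 5153. Their log2 differences were 0.37 (adjusted p = 0.24) and 0.41 (adjusted p = 0.29).

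**Figure D3:**
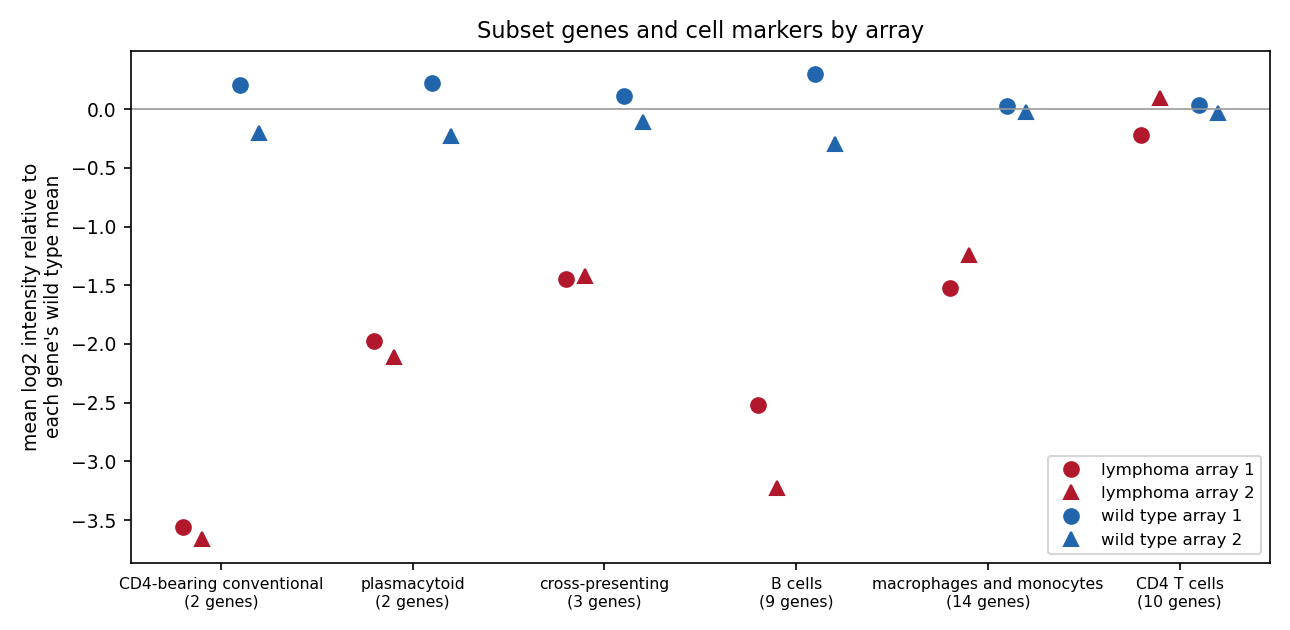
Each point is the mean log2 intensity over a group of genes on 1 array, relative to the wild type mean of each gene (y axis). The CD4-bearing conventional genes are at -3.56 and -3.67 on the lymphoma arrays, the plasmacytoid genes at -1.97 and -2.11 and the cross-presenting genes at -1.45 and -1.42, while B cell markers are at -2.52 and -3.22.

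Genes shared by many dendritic cells fell with the members. Of 10 such genes, 6 fell, none rose and 4 did not pass, with a median log2 difference of -1.54. The integrin Itgax, which encodes CD11c, had 249 and 206 in lymphoma, against 1535 and 1458 in wild type (log2 difference -2.72, SE 0.19, adjusted p = 0.0026 in limma). Ciita, the master activator of MHC class II genes (log2 difference -2.41), the growth factor receptor Kit (-2.25) and the class II chain H2-Aa (-1.79) fell as well. B cells also express Ciita and H2-Aa.

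Further genes of the plasmacytoid program fell as well. Of 12 measured plasmacytoid genes, 7 fell and none rose, with a median of -1.49. Ccr9, a chemokine receptor of plasmacytoid cells that T cells also carry, had 89.9 and 83.4 in lymphoma, against 555 and 607 in wild type (log2 difference -2.75, SE 0.17, adjusted p = 0.0021 in limma). The surface protein Ly6d (-2.85), the factor Spib (-2.81) and the repressor Bcl11a (-2.67) fell too, and B cells express these 3 genes. Wild type arrays differed widely for Ly6d (2186 and 672), and with a robust variance trend neither Ly6d (adjusted p = 0.13) nor Spib (0.080) passed. In the main fit 5 of the 12 genes did not pass in limma. They were Tlr9 (-1.59, adjusted p = 0.055), Cox6a2 (-0.95, 0.079), Pacsin1 (-0.60, 0.31), Bst2 (-0.12, 0.87) and Atp1b1 (0.37, 0.69).

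Among 11 further genes of the CD4-bearing conventional subset, 5 fell and none rose, with a median of -0.43. Sirpa, an inhibitory receptor for CD47, had 677 and 673 in lymphoma, against 2768 and 2732 in wild type (log2 difference -2.03, SE 0.16, adjusted p = 0.0037 in limma). The inhibitory lectin Clec12a (-2.17), the adhesion molecule Esam (-1.35) and the integrin Itgam (-1.25) fell too. Macrophages and monocytes share Sirpa and Itgam. Irf4, a factor needed by this subset and by activated lymphocytes, differed by -0.01 (95% interval -0.54 to 0.52, adjusted p = 0.99 in limma).

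Among 14 further genes of the cross-presenting subset, 2 fell and none rose, with a median of -0.49. Wdfy4, needed for cross-presentation of cell-bound antigen and also made by B cells, had 181 and 113 in lymphoma, against 1226 and 1149 in wild type (log2 difference -3.05, SE 0.26, adjusted p = 0.0043 in limma). The scavenger receptor Cd36 fell by 2.14. Of the 12 that did not pass, 4 had positive differences, among them Nfil3 (0.96, adjusted p = 0.095) and the RNA sensor Tlr3 (0.79, adjusted p = 0.23). Other cells also express both genes. Over the 14 genes, 10 differences were negative. At an unadjusted p under 0.05 in limma, 7 of them were lower and 3 higher. Cd8a, which encodes CD8 alpha, was at -1.11 without passing (adjusted p = 0.10).

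**Figure D4:**
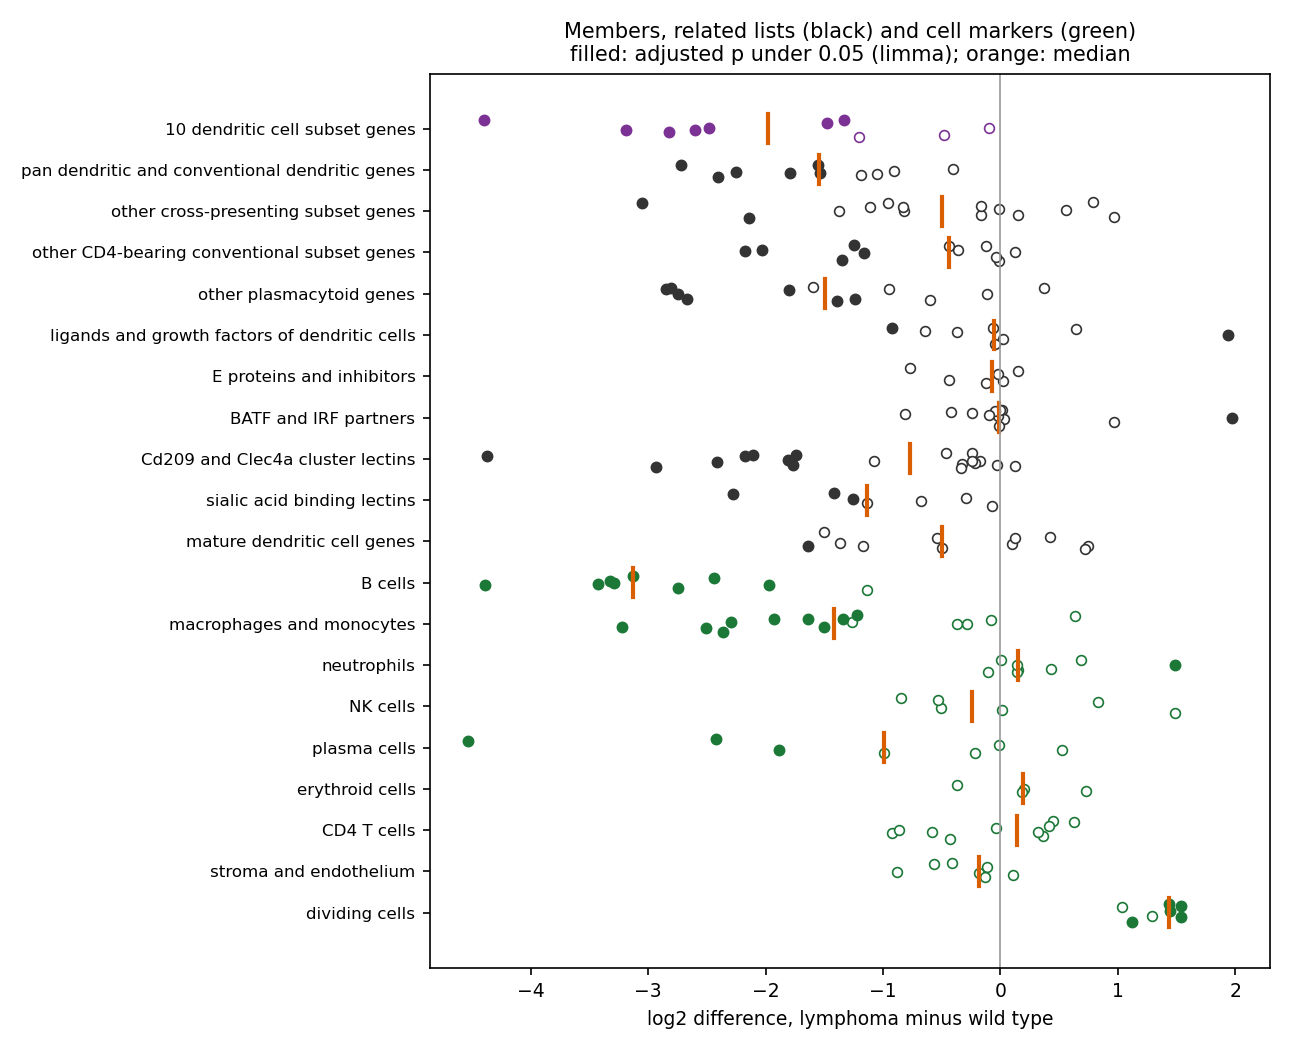
Log2 differences (x axis, lymphoma minus wild type) are shown for the 10 genes (purple), for related gene lists (black) and for markers of other cells (green). Each point is a gene, filled where the adjusted p was under 0.05, and orange bars are medians (-1.98 for the 10 genes, -3.13 for B cells, 0.14 for CD4 T cells).

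The ligands of these receptors were measured too. Flt3l, the growth factor that binds Flt3, had 596 and 552 in lymphoma, against 1145 and 1032 in wild type, and fell by 0.92 on the log2 scale (SE 0.18, adjusted p = 0.045 in limma). With all probe sets tested separately it did not pass (adjusted p = 0.052). Csf1, the macrophage growth factor, rose by 1.94 (1517 and 844 in lymphoma, against 333 and 261 in wild type, adjusted p = 0.025). Xcl1, the ligand of Xcr1 made by T and natural killer cells, had 537 and 421 in lymphoma, against 564 and 437 in wild type, a difference of -0.06 (95% interval -0.61 to 0.48, adjusted p = 0.95). Flt3l and Csf1 were the only calls among 8 listed ligands and growth factors, with a median of -0.05.

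Most partners of the transcription factor members did not pass. Of 12 BATF and IRF partners, 1 rose and none fell, with a median of -0.02. Batf, the relative of Batf3 that activated T cells use with Irf4, had 2390 and 1899 in lymphoma, against 584 and 507 in wild type (log2 difference 1.97, SE 0.20, adjusted p = 0.0068 in limma). Of 6 E proteins and Id inhibitors that pair with or block Tcf4, none passed in limma in either direction (0 also at an unadjusted p under 0.05). The largest differences were those of Id3 (-0.77, adjusted p = 0.60) and Tcf3 (-0.44, adjusted p = 0.48). Id3 was at 629 and 196 in wild type, so its arrays disagreed within that group.

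The lectin members Cd209a, Clec4a4 and Clec9a lie in chromosomal clusters of related genes, and the members' neighbours were read by gene order in the RefSeq table. Around Cd209a, 2 of 11 measured genes among the 6 on each side fell. These were Fcer2a, the low affinity IgE receptor of B cells and some dendritic cells, with a log2 difference of -4.37, and Cd209d with -2.94. Cd209d had 46.0 and 58.5 in lymphoma, against 442 and 356 in wild type. The adjacent Cd209e differed by -0.25 (adjusted p = 0.82 in limma), Clec4g by -0.43 and Cd209b by -0.32. In wild type Cd209e was at 42.4 and 77.1, and Cd209b at 85.9 and 67.7. The lower quartiles of these arrays were 57.0 and 60.1, so both genes were dim there and had little room to fall.

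Around Clec4a4, 4 of 12 measured neighbours fell, and all 4 encode lectins of the same cluster. Their log2 differences were -2.41 for Clec4a1, -1.81 for Clec4n, -1.77 for Clec4a3 and -1.74 for Clec4a2. Clec4d and Clec4e, lectins of activated myeloid cells, differed by -0.34 and -0.22 without passing. They were dim in wild type as well (51.3 and 65.2 for Clec4d, 40.3 and 49.4 for Clec4e), with little room to fall. Around Clec9a, Clec12a and Clec1b (-2.11, a receptor best known on platelets) fell, Gabarapl1 rose by 1.74, and Clec7a, the receptor for fungal glucan, differed by 0.12 (adjusted p = 0.96). Lectins of a cluster can be similar in sequence, and the sources used here do not say whether probes cross-react between them.

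**Figure D5:**
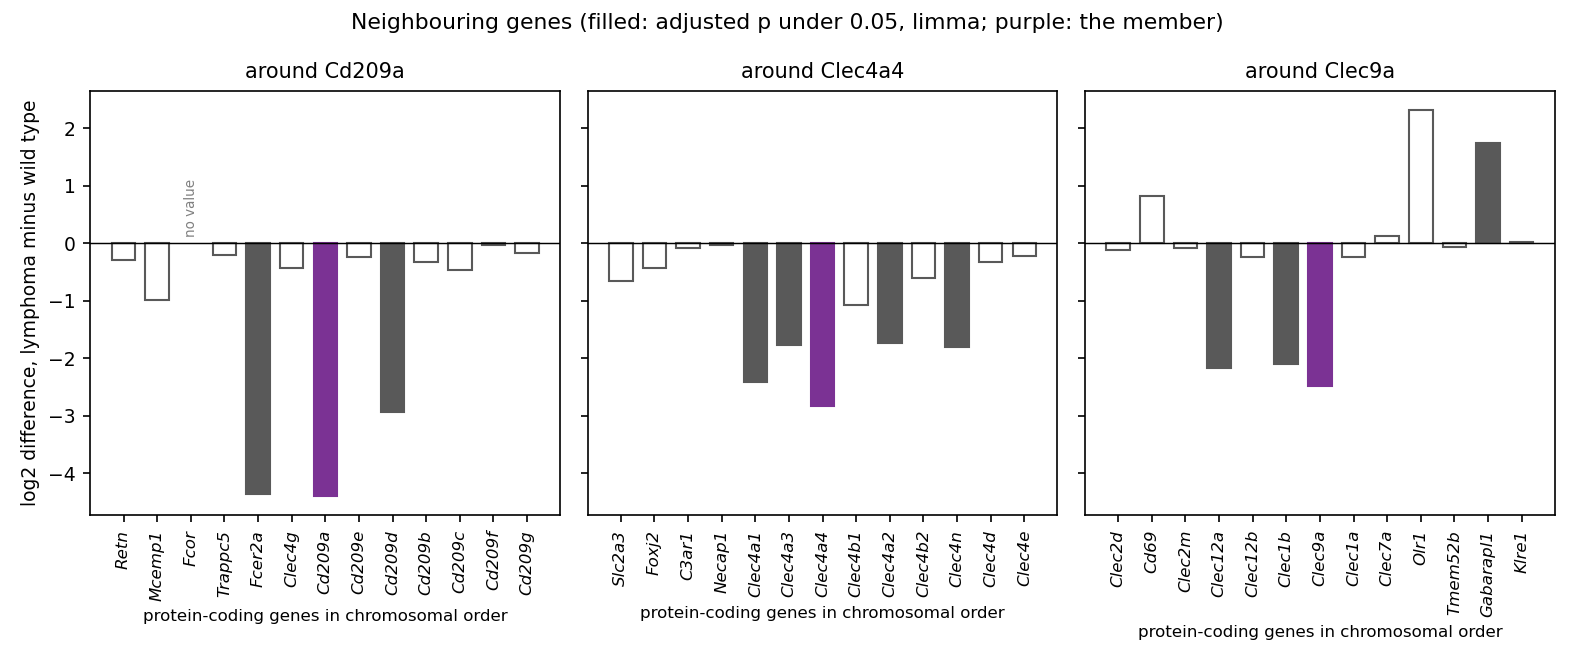
Bars give the log2 difference (y axis, lymphoma minus wild type) of Cd209a, Clec4a4 and Clec9a (purple) and of the 6 protein-coding genes on each side in chromosomal order, filled where the adjusted p was under 0.05. Cd209d (-2.94) and Fcer2a (-4.37) fell around Cd209a. The adjacent Clec4g and Cd209e did not pass, and Cd209e was dim in wild type too.

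The genes whose profile over the 4 arrays was nearest to each member were found by Euclidean distance between log2 values centred on each gene's mean. For Cd209a the nearest were its neighbour Fcer2a (distance 0.27) and the desaturase Scd1 (0.28), and 3 genes lay within 0.5. For Clec4a4 they were Itgax (0.23) and the class II chain H2-Eb2 (0.24), and for Siglech the endosomal receptor Tlr13 (0.14) and Rgs13 (0.19), a regulator of G protein signalling. For Tcf4 they were the nucleic acid sensors Tlr8 (0.04) and Tlr7 (0.11). Within 0.5 lay 26 genes for Clec4a4, 37 for Siglech and 202 for Tcf4, so the pair named for Tcf4 is not distinctive.

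Flt3 was nearest to the receptor kinase Grk3 (0.16) and Bex6 (0.20), and Clec9a to the Fc receptor gamma chain Fcer1g (0.09) and Rgs13 (0.18). Within 0.5 lay 17 genes for Flt3, 40 for Clec9a and 69 for Irf8. Xcr1 was nearest to Sash1 (0.05) and the platelet activating factor receptor Ptafr (0.06), with 274 genes within 0.5. Irf8 was nearest to Ms4a4c (0.09) and the choline transporter Slc44a1 (0.15), which also had a lower value on lymphoma array 2 than on lymphoma array 1. Batf3 (Tmod2 and Epn2, 0.05 each) and Zbtb46 (Zfp867 and Fndc11, 0.06 each) lay within 0.5 of 5053 and 7537 genes, so many genes were about as near. The distances rest on 4 arrays, and the size of the difference between the groups enters each of them.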

How the data were processed

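The authors deposited linear intensity for 35556 probe sets per array (2.50 to 18153, array medians 130 to 142). Affymetrix Expression Console was used, per the submitters' processing notes, with a summarisation, normalization and version not given in the sources used here, and no detection calls were used. Array log2 values correlated at r = 0.97 within lymphoma and 0.98 within wild type.

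Log2 was taken with no pseudocount or filter. Probe sets with 1 gene symbol in GEO's platform annotation (21789, of which 21698 matched a RefSeq gene) were used, the brightest per gene, which left 19938 genes. In limma 3.58.1 (R 4.3.3) the groups were compared by two-sided tests with a variance trend, 2 residual and 4.24 prior degrees of freedom, and p-values were adjusted over all genes (Benjamini-Hochberg). The procedure was tested on simulated data.

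The members and gene lists were chosen with earlier results of these data known. Named genes are the members, up to 4 called genes per list (or the 2 largest differences), Cd3e, Cd4, Csf1r and Itgax, and 2 nearest profiles per member. Irf4, Xcl1, Nfil3, Tlr3, Cd8a, Cd79a and the other named cell markers were added after values were seen. So were the plasmacytoid genes that did not pass, the chromosomal neighbours and the promoter letters. Alternatives covered normalization, filtering, variance model, probe set choice, pseudocount, threshold, weights, replicate number and leaving out each array. Figures used matplotlib 3.10.9.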

Additional observations from a re-analysis of the deposited data

How the results depend on the processing

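The 7 calls among the members held under quantile normalization, subtraction of array medians, no variance trend, a robust trend and a pseudocount of 16. They also held with array weights, which were nearly equal (1.02 for wild type and 0.98 for lymphoma). Averaging probe sets or testing them separately left the members' own values unchanged, since each had 1 probe set. An adjusted p under 0.1 could not end a call, and it left the number of lower members at 7. With the lowest tercile of genes left out 5 held, since Clec9a and Clec4a4 were not tested there. Leaving out 1 array gave between 0 and 8 lower members, between 0 and 1057 higher genes and between 0 and 843 lower genes. With 1 array left out, the log2 difference of Zbtb46 lay between -0.34 and 0.15, positive without lymphoma array 1. A threshold of 0.1 called 665 higher genes. A pseudocount of 16 moved the cross-presenting median to -1.13 and the CD4-bearing conventional median to -3.18. The cross-presenting median was -1.91 without Batf3, and the plasmacytoid median -1.48 with Irf8. The replicate number as a block gave 429 higher and 555 lower genes and left the member calls at 7, while Flt3l (adjusted p = 0.053) and Siglece (0.060) did not pass there. The numbers are not said to mark a shared batch, and differences between arrays 1 and 2 correlated at 0.23 across genes between the groups. Calls of Ms4a1 (0.11), Cd79a (0.14), Cd79b (0.051) and Jchain (0.24) ended with a robust trend, and that of Cd33 (0.054) under quantile normalization. The number of arrays limits precision, and without detection calls folds of dim genes are uncertain.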

Other observations

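Of 7 other measured sialic acid binding lectins, 3 fell, none rose and 4 did not pass, with a median log2 difference of -1.14. Siglecg, an inhibitory receptor of B cells, had 231 and 161 in lymphoma, against 992 and 886 in wild type (log2 difference -2.28, adjusted p = 0.0068 in limma). The myeloid receptors Siglece (-1.42) and Cd33 (-1.26) fell, and the calls ended with the replicate block for Siglece and under quantile normalization for Cd33. B cell and macrophage markers were lower on the same arrays (medians -3.13 and -1.42), and their part was not tested.

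Of 11 measured genes of mature dendritic cells, 1 fell and none rose, with a median of -0.50. The costimulatory ligand Cd86, which B cells also carry, had 179 and 141 in lymphoma, against 445 and 549 in wild type (log2 difference -1.64, adjusted p = 0.013 in limma). Its relative Cd80, which activated T cells can also make, had 1754 and 1573 in lymphoma, against 1042 and 975 in wild type, a difference of 0.72 that did not pass (adjusted p = 0.085). Cd80 was singled out after its values were seen.

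Markers of cells that the selection should remove did not move alike. Of 8 neutrophil markers, 1 rose and none fell (Ngp, 1.49 on the log2 scale), and none of 6 natural killer cell markers passed in limma, where the unadjusted p was under 0.05 for 2 higher and 1 lower. Of 7 plasma cell markers 3 fell and none rose (median -0.99, Jchain -4.53). None of 4 erythroid markers (0 in either direction at an unadjusted p under 0.05) and none of 7 stromal markers (1 lower at an unadjusted p under 0.05) passed in limma. Markers of dividing cells stand for no single cell type and were read apart from these. Of 7 measured, 5 rose and none fell, with a median of 1.44.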
